A study of Oryza sativa with 14 samples.

Results

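The genes described here are 10 loci of the cytokinin pathway in leaves of the rice cultivar Koshihikari, chosen by name from the 37727 genes counted. They are 9 type-A response regulators (OsRR1 to OsRR7, OsRR9 and OsRR10) and the cytokinin oxidase/dehydrogenase gene OsCKX2. The deposited annotation calls each of the 9 an A-type response regulator of cytokinin signaling, and gives OsCKX2 the symbol GN1A. Leaves came from wild-type field plants under chemical fertilizer (CF) or under green manure (GM), in which hairy vetch, a legume cover crop, was ploughed into the paddy and no chemical fertilizer was given. In 2023, 4 leaves per treatment were taken 47 days after transplanting, following vetch sown at 30 kg of seed per hectare. In 2024, 3 leaves per treatment were taken at 38 days, following vetch sown at 60 kg per hectare. CF plots received N (56 kg per hectare), PO4 (176), K (56), Mg (90) and SiO2 (120) in both years, and the seedling trays of all groups stood in a fertilized field before transplanting. Each library is 1 leaf. The number of plots behind a treatment is not stated, so p-values measure the spread between leaves, and treatment cannot be told apart from plot. The series description names the uppermost fully expanded leaf, whereas the extraction protocol names the largest leaf.

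Cytokinins are plant hormones that promote cell division and delay leaf senescence, and their supply is tied to nitrogen nutrition. They bind histidine kinase receptors, which pass a phosphate through phosphotransfer proteins to type-B response regulators in the nucleus. Type-B regulators are transcription factors that switch on target genes, among them the type-A regulators. Type-A regulators lack the DNA-binding domain and dampen the same signal, so that their transcripts serve as a common readout of cytokinin response. Cytokinin oxidases degrade the hormone. OsCKX2 is known as the grain number gene Gn1a, which acts mainly in the inflorescence meristem.

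Library totals lay between 8161851 and 11375515 reads in 2023 and between 13224671 and 23367369 in 2024. The leaf label was matched by 5 of 7 mesophyll markers (Rubisco small subunits and the magnesium chelatase subunit OsCHLH), each at 557 CPM or more in every library, that is, read counts scaled to library size with TMM factors over all 14 libraries. Of the other mesophyll markers, RBCS1 lay between 0.155 and 0.648 CPM and Os12g0291200 was at 0. The shoot meristem markers OSH1 and OSH15 had 0 reads in every library, as did the root gene OsLsi2 and the inflorescence gene LAX1. The other inflorescence marker, OsMADS1, lay between 1.32 and 5.82 CPM and was called in no comparison (nearest for the year under GM, 0.85 ± 0.34, adjusted p = 0.0559). The 11 markers of dividing cells summed to between 47.6 and 69.1 CPM over all groups. Most of this came from Os02g0800500 (34.3 to 50.8 CPM) and Os02g0801200 (9.11 to 13.6 CPM). The others, OsCDKB2;1 among them, lay at 2.76 CPM or less in every library. Genes were tested with edgeR's quasi-likelihood test and called at a Benjamini-Hochberg adjusted p under 0.05 over all genes tested. Fold changes are log2 values ± SE.

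Of the 10 members, 7 had enough reads to be tested. OsRR5 and OsRR7 had 0 reads in all 14 libraries, which allows a level of up to 0.0167 CPM over the 179547731 reads together, or between 0.128 and 0.368 CPM within single libraries. This limit covers counting error only. OsRR3 had 34 reads in all. The CF leaves of 2023 held 5, 1, 3 and 4 OsRR3 reads, against 0, 1, 0 and 1 under GM. In 2024 the counts were 5, 2 and 6 under CF against 3, 2 and 1 under GM. The mean OsRR3 level was lower under GM in both years, at 0.302 against 0.0511 CPM and 0.262 against 0.160 CPM. Without the filter on low counts, its 2023 difference of -2.42 ± 1.14 had an unadjusted p = 0.0402 and an adjusted p = 0.379 in edgeR.

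OsRR2 (Os02g0557800, chromosome 2) was higher under GM in both years. In 2023 the CF leaves held 39.9, 47.8, 43.5 and 54.2 CPM, and the GM leaves 85.4, 88.8, 70.8 and 73.9 CPM. In 2024 the CF leaves held 101.8, 116.5 and 112.7 CPM, and the GM leaves 160.5, 181.1 and 143.9 CPM. No GM leaf overlapped a CF leaf of its year. The difference was 0.78 ± 0.11 in 2023 (1.71-fold, 95% interval 0.54 to 1.01, edgeR adjusted p = 0.00239) and 0.54 ± 0.10 in 2024 (1.46-fold, 0.32 to 0.77, adjusted p = 0.016). In 2024 this call was lost without CF leaf 1 (0.49, adjusted p = 0.0967), CF leaf 3 (0.56, 0.0639) or GM leaf 2 (0.46, 0.0568), and when plain library totals replaced TMM (0.33, 0.0701). OsRR2 was 1 of 113 genes called higher in both years, or 0.62% of the 18227 genes tested in both. More cells of a type and more RNA per cell cannot be told apart in such whole-leaf samples.

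The root marker OsLsi1 and most mesophyll markers also had positive differences. Of 5 tested mesophyll markers, 4 were positive and 1 was called higher in 2023, and 5 were positive and 3 called higher in 2024. Of all genes tested, 49.8% were positive and 1.63% called higher in 2023, and 49.1% and 1.89% in 2024. OsLsi1, a silicon transporter of roots, lay between 7.96 and 16.7 CPM under CF and between 15.6 and 29.4 CPM under GM in 2023, and between 19.3 and 24.8 and between 26.5 and 34.3 CPM in 2024. It was called in neither year (0.89 ± 0.22, edgeR adjusted p = 0.0633, and 0.39 ± 0.13, adjusted p = 0.136). Summed mesophyll markers ranged from 10900 to 21000 CPM under CF and from 11400 to 28000 CPM under GM in 2023. In 2024 they ranged from 34800 to 39500 CPM under CF and from 43600 to 84300 CPM under GM. The part of either in the OsRR2 difference was not tested.

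OsRR4 (Os01g0952500) and OsRR6 (Os04g0673300) had higher means under GM in both years without passing the test. For OsRR4 the 2023 CF leaves held 42.6, 43.9, 48.5 and 48.4 CPM and the GM leaves 49.8, 65.8, 70.5 and 62.3 CPM, with no overlap. In 2024 the OsRR4 values were 77.3, 109.2 and 96.6 CPM under CF against 103.2, 151.8 and 134.3 CPM under GM, with overlap. OsRR4 differed by 0.43 ± 0.11 (edgeR adjusted p = 0.0539) in 2023 and by 0.45 ± 0.16 (adjusted p = 0.182) in 2024. It passed the threshold in 2023 without GM leaf 1 (0.53, adjusted p = 0.00704), without GM leaves 1 and 2 (0.53, adjusted p = 0.00203), with DESeq2 (adjusted p = 0.0239) and with no filter on low counts (adjusted p = 0.0262), and in 2024 without GM leaf 1 (0.59, adjusted p = 0.0169). GM leaf 1 held the lowest OsRR4 value of its group in both years. OsRR4 was called in 4 of 16 alternatives for 2023 and in 2 of 13 for 2024. With plain library totals its 2023 value was 0.25 (edgeR adjusted p = 0.204).

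OsRR6 had few reads, between 7 and 102 per library. In 2023 it held 1.16, 1.11, 2.21 and 0.640 CPM under CF and 3.42, 2.26, 2.90 and 2.65 CPM under GM. In 2024 it held 3.31, 5.33 and 4.05 CPM under CF and 5.70, 10.8 and 5.77 CPM under GM. The treatments did not overlap in either year, though in 2023 the highest CF leaf lay close to the lowest GM leaf. OsRR6 had the largest positive differences of the tested members in both years, 1.14 ± 0.35 (edgeR adjusted p = 0.111) and 0.77 ± 0.27 (adjusted p = 0.173), with the widest intervals among the type-A genes (0.39 to 1.89 and 0.16 to 1.37). Without GM leaf 2 the 2024 value was 0.43, below the 0.46 of OsRR2 in the same fit.

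OsRR10 (Os12g0139400) and OsRR9 (Os11g0143300) are a duplicated pair on chromosomes 12 and 11 with nearly identical coding sequence. The deposited values are unique exon reads, so the split of reads between the pair is uncertain. OsRR10 held 13.2, 10.47, 15.9 and 13.4 CPM under CF in 2023 and 15.1, 24.5, 18.5 and 24.0 CPM under GM, where 1 GM leaf fell within the CF range. OsRR9 held 6.89, 8.89, 7.52 and 9.97 CPM under CF and 8.07, 8.63, 13.3 and 11.3 CPM under GM, with overlap. The 2023 difference was 0.62 ± 0.17 (edgeR adjusted p = 0.0644) for OsRR10 and 0.31 ± 0.19 (adjusted p = 0.472) for OsRR9, which was 0.16 without GM leaf 3. OsRR10 passed the threshold without GM leaf 1 (0.75, adjusted p = 0.0115), without GM leaves 1 and 2 (0.68, adjusted p = 0.0159), with DESeq2 (adjusted p = 0.0307) and with no filter on low counts (adjusted p = 0.02). GM leaf 1 held the lowest OsRR10 value of its group. These were 4 of 17 alternatives. Without CF leaf 2 the OsRR10 value was 0.53 (edgeR adjusted p = 0.187). In 2024 OsRR10 held 16.7, 33.4 and 24.3 CPM under CF against 23.8, 32.4 and 28.3 CPM under GM, and OsRR9 held 10.4, 18.9 and 15.8 against 14.04, 17.8 and 15.7 CPM. Both GM ranges lay inside the CF ranges. The 2024 differences, 0.17 ± 0.24 for OsRR10 (adjusted p = 0.798) and 0.06 ± 0.20 for OsRR9 (adjusted p = 0.924), turned negative with plain library totals (-0.05 and -0.15) and without CF leaf 1 (-0.05 and -0.14). That of OsRR9 was also negative without GM leaf 2 (-0.02).

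The ratio of OsRR10 to OsRR9 reads, which is not corrected for length, varied from 1.18 to 2.83 over the 14 libraries. It lay between 1.54 and 1.82 in the libraries of 2024. With the reads of the pair summed, a calculation added after the data were seen, the 2023 difference was 0.51 ± 0.13 (edgeR adjusted p = 0.056) and the 2024 difference 0.13 ± 0.23 (adjusted p = 0.84).

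OsRR1 (Os04g0442300) held 8.14, 8.43, 8.42 and 8.60 CPM in the CF leaves of 2023, an SD of 0.189 CPM. The GM leaves spread from 8.15 to 13.97 CPM around a mean of 10.95 ± 2.44 CPM (SD, n = 4), and the lowest GM leaf fell among the CF leaves. In 2024 OsRR1 held 18.1, 28.3 and 20.6 CPM under CF and 16.1, 25.9 and 19.6 CPM under GM, ranges that largely coincided. The differences were 0.37 ± 0.17 (edgeR adjusted p = 0.31) in 2023 and -0.14 ± 0.20 (adjusted p = 0.792) in 2024. Without GM leaf 2 the 2023 value was 0.23. The 2024 value turned positive without CF leaf 2 (0.06) or GM leaf 1 (0.01).

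OsCKX2 (Os01g0197700) was near the detection limit, with between 6 and 43 reads per library. It held 1.25, 0.556, 1.20 and 0.732 CPM under CF and 1.09, 0.616, 1.72 and 3.46 CPM under GM in 2023. In 2024 it held 1.62, 2.87 and 1.00 CPM under CF and 1.49, 1.38 and 1.12 CPM under GM. All 4 groups overlapped, and GM leaf 4 of 2023 stood above the rest. The differences were 0.86 ± 0.49 (edgeR adjusted p = 0.436) in 2023 and -0.44 ± 0.39 (adjusted p = 0.633) in 2024. Their intervals, -0.19 to 1.90 and -1.29 to 0.42, include 0. Without GM leaf 4 the 2023 value was 0.29, and without CF leaf 2 the 2024 value was 0.05.

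**Figure D1:**
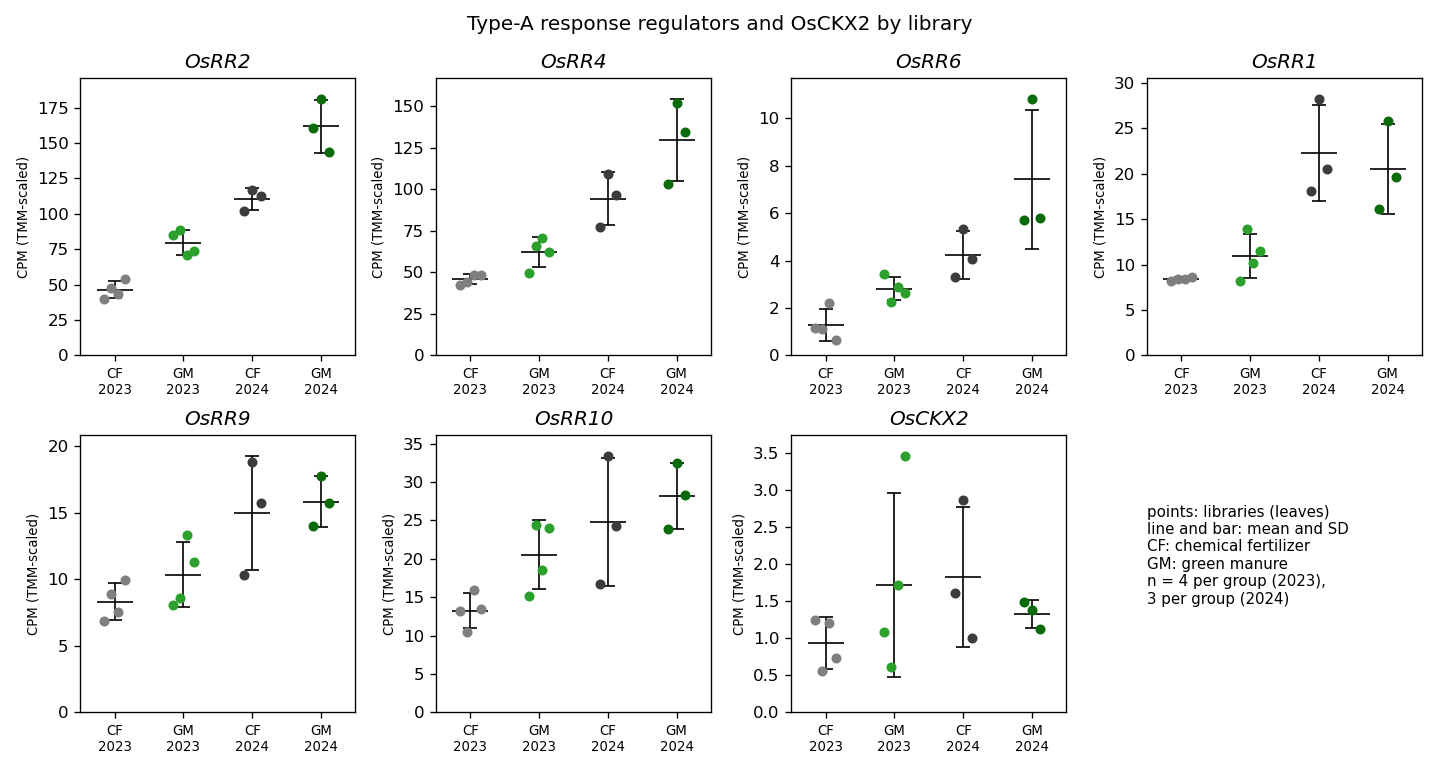
Level of each tested member in every library, in TMM-scaled CPM on linear axes from 0, by treatment and year, with 1 point per leaf and the mean and SD of each group (n = 4 in 2023, 3 in 2024). OsRR2 is the member in which none of the 4 groups overlaps another, with means of 46.4, 79.7, 110.3 and 161.8 CPM, whereas the OsCKX2 groups overlap throughout.

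Counted together for 2023, 1 of the 7 tested members was called higher under GM and 0 lower, against 2.48% of all 18577 genes tested that were called in either direction and 1.63% that were called higher. All 7 had positive values, with a median of 0.62 against -0.00112 over all genes tested. GM and CF leaves were fully separated for 3 members, all higher under GM, against 9.95% of all genes in either direction and 5.35% higher. Members called rose to 3 (OsRR2, OsRR4 and OsRR10) without GM leaf 1, whose type-A values were the lowest of its group in 4 of 6 genes. That fit called 666 of all 18790 genes tested. For 2024, 1 of 7 was called higher and 0 lower, against 3.25% of the 19261 genes tested called in either direction and 1.89% called higher. Positive values were found for 5 of 7, with a median of 0.17 against -0.00479 over all genes tested, and 2 did not overlap (22.7% of all genes in either direction, 11.8% higher). Without CF leaf 1, CF leaf 3 or GM leaf 2 of 2024, 0 members were called, and without GM leaf 1, 2 were called. Of all genes tested, the fits with 0 members called 162 of 19635, 290 of 19590 and 270 of 19758. The fit without GM leaf 1 called 1603 of 19658. Plain library totals moved the median of all genes to -0.18 in 2023 and -0.21 in 2024, and the members' median to 0.43 and -0.05.

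**Figure D2:**
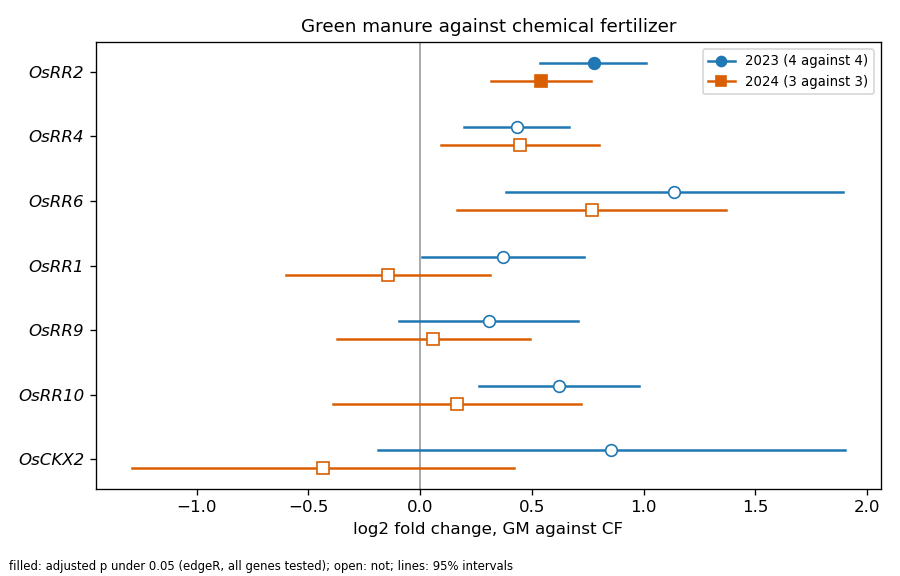
Log2 fold change of GM against CF for each tested member, with 95% intervals, for 2023 (circles) and 2024 (squares), and filled symbols where edgeR's adjusted p was under 0.05. OsRR2 is the filled gene in both years (0.78 and 0.54), and the values of OsRR1 and OsCKX2 lie on opposite sides of 0 in the 2 years.

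The difference between the years' GM effects was tested directly, in 1 fit of the 4 groups. It passed for 0 of 7 members, against 0.0101% of the 19805 genes tested (0.00505% larger and 0.00505% smaller in 2024). No member had an unadjusted p under 0.05 in this edgeR fit, and 0 were called by DESeq2. OsRR1 (-0.50 ± 0.26, unadjusted p = 0.0719, edgeR adjusted p = 0.791) and OsCKX2 (-1.30 ± 0.68, unadjusted p = 0.0727, adjusted p = 0.794) came nearest. With no filter on low counts, edgeR's unadjusted p was 0.0462 for OsRR1 and 0.0499 for OsCKX2 (adjusted p = 0.934 and 0.936). For OsRR2 the GM effect was 0.23 ± 0.16 smaller in 2024 (-0.23, 95% interval -0.57 to 0.11, adjusted p = 0.849), so that a like effect and a clearly smaller one in 2024 both lie within the interval.

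The other genes of the pathway were 94 loci found by searching the deposited names and descriptions, of which 43 were tested in 2023 and 46 in 2024. In 2023, 4 of 43 were called higher under GM and 0 lower (1.63% and 0.851% of all genes), with a median of 0.07. In 2024, 5 of 46 were called higher and 1 lower (1.89% and 1.36% of all genes), with a median of -0.10. Without single libraries the calls varied between 1 and 4 in 2023 and between 0 and 8 in 2024. Over all genes, calls in the same fits varied between 149 and 666 in 2023 and between 162 and 1603 in 2024. No receptor, phosphotransfer protein or type-B regulator was called in 2023, out of 5 tested in each class, and 1 receptor was called in 2024. Receptors had positive values for 1 of 5 in 2023 (median -0.155) and 3 of 5 in 2024 (median 0.103). Type-B regulators had positive values for 1 of 5 in each year (medians -0.193 and -0.135). The genes sorted as phosphotransfer proteins by their annotation were AHP1, AHP2, PHP1, PHP2 and PHP3. They had positive values for 5 of 5 in 2023 (median 0.28) and 2 of 5 in 2024 (median -0.10), against 49.8% and 49.1% of all genes. AHP1 and AHP2 had 0.38 ± 0.25 and 0.07 ± 0.10 in 2023, and 0.22 ± 0.18 and -0.10 ± 0.09 in 2024. Whether each of these proteins passes a phosphate was not tested.

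Of 12 tested genes for breakdown and conjugation, 3 were called higher and 0 lower in 2023 (1.63% and 0.851% of all genes). Values were positive for 8 of the 12 (49.8% of all genes), with a class median of 0.59. In 2024, 2 of 13 were called higher and 1 lower (1.89% and 1.36% of all genes). Values were positive for 7 of the 13 (49.1% of all genes), with a median of 0.02. CKX4, a cytokinin oxidase, rose from 39.2 ± 4.61 to 61.2 ± 3.65 CPM (SD, n = 4; 0.64 ± 0.10, edgeR adjusted p = 0.00345). CKX11, another oxidase, rose from 30.8 ± 3.39 to 50.03 ± 10.9 CPM (0.70 ± 0.14, adjusted p = 0.018), a call lost without CF leaf 3 (0.66, adjusted p = 0.0801). CZOGT2, which attaches glucose to cis-zeatin, rose from 2.49 ± 0.684 to 5.37 ± 1.03 CPM (1.10 ± 0.25, adjusted p = 0.0313). The CZOGT2 call was lost without CF leaf 2, 3 or 4 or GM leaf 1 or 2, with adjusted p = 0.0871, 0.0881, 0.0648, 0.0577 and 0.0505. It was also lost without both GM leaves 1 and 2 (0.89, edgeR adjusted p = 0.106).

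CKX4 and CKX11 showed no such difference in 2024, at 92.9 ± 8.60 against 98.5 ± 8.85 CPM and 110.3 ± 2.80 against 115.4 ± 7.66 CPM (SD, n = 3). Their 2024 values were 0.07 ± 0.10 and 0.05 ± 0.09. The change between years was the nearest to a call in the pathway list, -0.56 ± 0.15 for CKX4 (edgeR adjusted p = 0.437) and -0.64 ± 0.19 for CKX11 (adjusted p = 0.539). It passed for 0 of 48 pathway genes by edgeR and by DESeq2, and 10 of the 48 had an unadjusted p under 0.05 in edgeR. Over all 19805 genes tested, fewer than 1798 lay under that limit, since OsRR1, which lay above it, ranked 1798 from the smallest. Another oxidase, CKX3, was called higher in 2024, at 13.3 ± 1.82 against 24.0 ± 6.18 CPM (0.82 ± 0.18, edgeR adjusted p = 0.0358). Its value in 2023 was 0.77 ± 0.205 (adjusted p = 0.0605), and its change between years 0.06 ± 0.29 (adjusted p = 0.983).

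ABCG18, which the annotation describes as a transporter for root-to-shoot movement of cytokinins, was called higher in both years. It rose from 10.49 ± 0.618 to 17.0 ± 3.95 CPM in 2023 (0.69 ± 0.16, edgeR adjusted p = 0.032) and from 26.3 ± 2.38 to 35.4 ± 1.00 CPM in 2024 (0.42 ± 0.10, adjusted p = 0.043). The 2023 call was lost without CF leaf 1, 2, 3 or 4 or GM leaf 2 (0.55 to 0.74, adjusted p = 0.0658 to 0.114). It was also lost without both GM leaves 1 and 2 (0.40, edgeR adjusted p = 0.18). The 2024 call was lost without CF leaf 1, 2 or 3 or GM leaf 2 or 3 (0.36 to 0.49, adjusted p = 0.067 to 0.174). Of 7 tested transport genes, 1 was called higher and 0 lower in each year. Over all genes these shares were 1.63% and 0.851% in 2023, and 1.89% and 1.36% in 2024. Values were positive for 4 of 7 in 2023 (median 0.05) and for 1 of 7 in 2024 (median -0.24), against 49.8% and 49.1% of all genes.

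HK4, a histidine kinase receptor, rose in 2024 from 89.2 ± 3.00 to 125.4 ± 8.31 CPM (0.48 ± 0.09, edgeR adjusted p = 0.0133). In 2023 it held 50.8 ± 5.07 and 54.5 ± 1.80 CPM (0.09 ± 0.10). IPT7, an enzyme of cytokinin synthesis, rose from 1.00 ± 0.233 to 2.75 ± 0.567 CPM in 2024 (1.40 ± 0.30, adjusted p = 0.0281). This rests on 51 reads over the CF leaves and 102 over the GM leaves. In 2023 IPT7 had 9 and 28 reads, too few to be tested. Of 10 tested genes for synthesis and activation in 2024, 1 was called higher and 0 lower (1.89% and 1.36% of all genes). Values were positive for 2 of the 10 (49.1% of all genes), with a median of -0.265. In 2023, 0 of 8 were called (2.48% of all genes) and 4 were positive (49.8% of all genes), with a median of 0.06. Among genes annotated as cytokinin glucosyltransferases, Os05g0177500 rose in 2024 from 128.0 ± 15.4 to 197.6 ± 31.0 CPM (0.62 ± 0.13, adjusted p = 0.0233), and Os05g0499800 fell from 81.9 ± 2.69 to 58.7 ± 7.06 CPM (-0.49 ± 0.10, adjusted p = 0.0214). Their 2023 values were alike without a call, 0.54 ± 0.29 (edgeR adjusted p = 0.434) and -0.48 ± 0.15 (adjusted p = 0.119).

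With plain library totals CKX11 (edgeR adjusted p = 0.0657), CZOGT2 (0.0635) and ABCG18 (0.0769) lost their 2023 calls, and HK4 (0.0844), Os05g0177500 (0.0612) and ABCG18 (0.282) their 2024 calls. With all 14 libraries in 1 fit, ABCG18 (edgeR adjusted p = 0.131), IPT7 (0.0898), Os05g0177500 (0.328) and Os05g0499800 (0.0991) lost their 2024 calls. Without single leaves HK4 lost its 2024 call without CF leaf 1, CF leaf 2 or GM leaf 3 (0.45 to 0.48, edgeR adjusted p = 0.0577 to 0.0843). Both Os05g0177500 (0.48 to 0.68, adjusted p = 0.0676 to 0.0992) and Os05g0499800 (-0.51 to -0.45, adjusted p = 0.0664 to 0.0926) lost theirs without any of the 3 CF leaves or GM leaf 2. Those of IPT7 (1.24 to 1.51, adjusted p = 0.054 to 0.115) and CKX3 (0.62 to 0.88, adjusted p = 0.0937 to 0.134) were lost without any of the CF leaves or GM leaf 2 or 3.

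**Figure D3:**
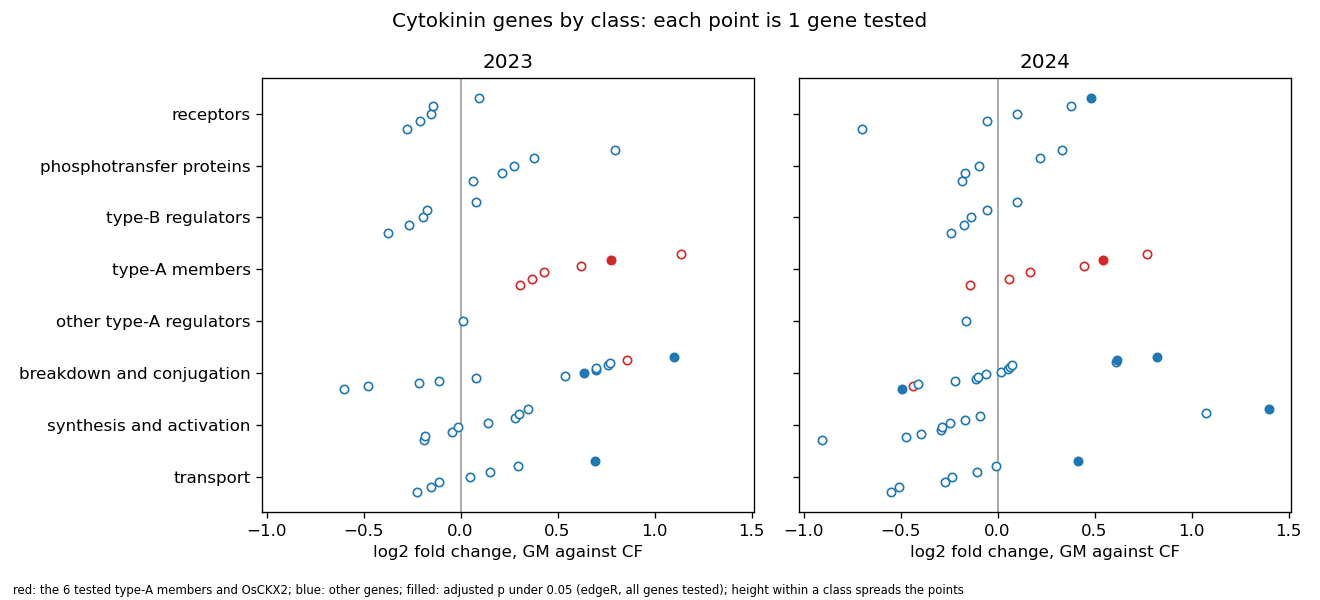
Log2 fold change of GM against CF in 2023 (left) and 2024 (right) for cytokinin genes by class, with 1 point per gene tested, the members in red and other genes in blue, and filled points where edgeR's adjusted p was under 0.05. The 6 type-A members lie to the right of 0 in 2023, while the type-B regulators lie between -0.37 and 0.08.

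Of 5 further type-A regulators in the list, 1 had enough reads to test. This gene, Os04g0494400, held 42.9 ± 4.97 CPM under CF and 43.4 ± 3.23 CPM under GM in 2023 (SD, n = 4), and 34.0 ± 1.80 and 30.6 ± 1.15 CPM in 2024 (n = 3). Its differences were 0.01 ± 0.10 and -0.16 ± 0.09 (edgeR adjusted p = 0.974 and 0.418). RR11 had 20 reads over the 14 libraries, RR13 had 3, and RR8 and RR12 had 0.

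OsRR1, OsRR2, OsRR4, OsRR6 and OsRR9 were called higher in 2024 than in 2023 within both treatments, and OsRR10 under CF. Under CF, 6 of 7 members were called higher in 2024 and 0 lower, against 39.9% of all 19805 genes tested in either direction, 19.5% higher and 20.4% lower. Under GM, 5 of 7 were called higher and 0 lower, against 37.8% in either direction, 18.6% higher and 19.1% lower. The year cannot be told apart from plant age (38 against 47 days after transplanting), season, sequencing depth, the separate deposited tables or, under GM, the vetch amount. These contrasts use the same libraries as the treatment comparisons.

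The year difference under CF was 1.41 ± 0.185 for OsRR1, 1.25 ± 0.12 for OsRR2, 1.04 ± 0.14 for OsRR4 and 1.73 ± 0.33 for OsRR6 (edgeR adjusted p between 8.52e-08 and 0.000322). Under GM the same genes differed by 0.91 ± 0.185, 1.02 ± 0.11, 1.06 ± 0.14 and 1.37 ± 0.29 (adjusted p between 9.35e-07 and 0.00101). OsRR9 differed by 0.85 ± 0.20 under CF (adjusted p = 0.00219) and by 0.61 ± 0.20 under GM (adjusted p = 0.0203). For these 5 genes the leaves of the years did not overlap within either treatment. Of all genes, 47.9% under CF and 38.4% under GM had no overlap between years (23.7% and 19.1% higher in 2024, 24.2% and 19.3% lower). OsRR10 differed by 0.91 ± 0.22 under CF (adjusted p = 0.00389) and by 0.46 ± 0.215 under GM (adjusted p = 0.107). OsCKX2 was called in neither (0.94 ± 0.48, adjusted p = 0.13, and -0.35 ± 0.48, adjusted p = 0.591).

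Plain library totals put the median of all genes in the year contrasts at -0.49 under CF and -0.52 under GM. OsRR9 then lost its calls (0.41, edgeR adjusted p = 0.0829, under CF and 0.13, adjusted p = 0.588, under GM), and the OsRR10 value under GM turned to -0.02. The OsRR9 call under GM was also lost without GM leaf 1 of 2023 (0.51, adjusted p = 0.0617) or GM leaf 2 of 2024 (0.56, adjusted p = 0.0707). OsCKX2 under GM turned to 0.21 without GM leaf 4 of 2023.

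**Figure D4:**
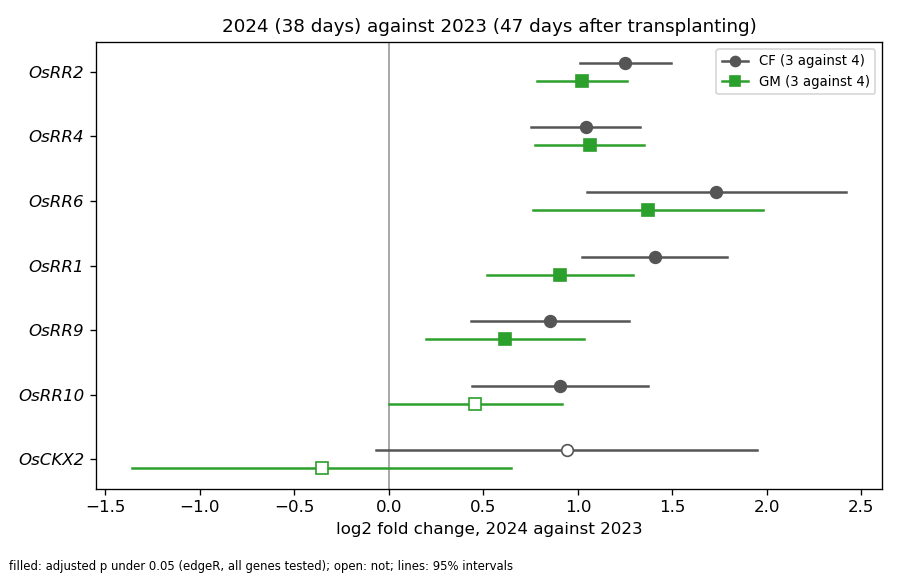
Log2 fold change of 2024 against 2023 for each tested member, with 95% intervals, under CF (circles) and GM (squares), and filled symbols where edgeR's adjusted p was under 0.05. OsRR1, OsRR2, OsRR4, OsRR6 and OsRR9 are filled under both treatments, and OsCKX2 under neither.

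Of 48 tested pathway genes, 23 were called higher and 9 lower in 2024 under CF (19.5% and 20.4% of all genes), and 18 and 8 under GM (18.6% and 19.1% of all genes). With plain library totals the counts were 15 higher and 16 lower under CF, and 10 and 19 under GM. Those fits called 11510 of all 19805 genes tested under CF, 13.3% of them higher. Under GM they called 11675, 11.1% of them higher. CKX11 (1.84 ± 0.13), CKX4 (1.25 ± 0.10), ABCG18 (1.33 ± 0.14), HK4 (0.81 ± 0.09), Os05g0499800 (1.13 ± 0.14) and the trans-zeatin synthesis gene CYP735A4 (2.71 ± 0.33) rose under CF. HK4 (1.20 ± 0.09), CKX11 (1.20 ± 0.13), Os05g0499800 (1.13 ± 0.14), ABCG18 (1.05 ± 0.13) and the receptor gene CKT1 (1.01 ± 0.13) rose under GM, and the purine permease PUP6 fell (-1.46 ± 0.20). Os04g0494400 went the other way from the type-A members, with -0.34 ± 0.10 under CF (edgeR adjusted p = 0.0122) and -0.50 ± 0.10 under GM (adjusted p = 0.000705).

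The mean level of OsRR2, OsRR4, OsRR6, OsRR9 and OsRR10 had the same order, CF of 2023 lowest, then GM of 2023, CF of 2024 and GM of 2024. For OsRR2 no neighbouring groups in this order overlapped. For OsRR4 the 2 groups of 2024 overlapped, and for OsRR6 GM of 2023 overlapped CF of 2024. For OsRR9 and OsRR10 each group overlapped the next. OsRR1 was ordered CF of 2023, GM of 2023, GM of 2024 and CF of 2024, with overlap between the treatments of each year but not between GM of 2023 and GM of 2024.

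Within a group, several type-A genes were high or low in the same leaf. In 2024, CF leaf 2 had the highest value of its group for 6 of 6 tested type-A members and CF leaf 1 the lowest for 6 of 6. GM leaf 2 had the highest for 6 of 6 and GM leaf 1 the lowest for 5 of 6. With plain library totals the counts were 6, 6, 5 and 4. In 2023 no leaf was the highest for more than 3 of 6, and CF leaf 1 and GM leaf 1 were each the lowest for 4 of 6. The genes share each library's depth and scaling factor, so these counts are a description.

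Likeness of pattern was described by Pearson r of log2 CPM centred within each year over the 14 libraries, which include the treatment difference and share depth and scaling. Among members, r was 0.83 for OsRR4 with OsRR10, 0.82 for OsRR1 with OsRR10, 0.75 for OsRR2 with OsRR4 and 0.06 for OsRR2 with OsCKX2. With values centred within each of the 4 groups, which takes out the treatment difference, r was 0.83 for OsRR1 with OsRR10 (0.82 with year centring), 0.82 for OsRR1 with OsRR4 (0.65), 0.78 for OsRR4 with OsRR10 (0.83) and 0.18 for OsRR2 with OsRR4 (0.75). Of all genes with a mean of at least 5 CPM, those most like OsRR2 were AK-HSDH2 (0.972), an aspartokinase/homoserine dehydrogenase of amino acid synthesis, the copper transporter gene COPT1 (0.965) and STN7 (0.964), annotated as similar to a serine/threonine kinase. PP2C54, annotated as similar to a protein phosphatase 2C, was the most like both OsRR4 (0.95) and OsRR10 (0.912), and Os08g0270500, of no annotated function, the most like OsRR6 (0.914). For OsRR1, OsRR9 and OsCKX2 no gene reached 0.9.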

How the data were processed

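RNA-seq of single leaves was analysed in 14 libraries. The authors deposited raw read counts per locus, which the labels call unique exon reads, in 1 table per year. The genome build is IRGSP 1.0 per the submitters' processing notes. For the aligner, the counting tool and its use of strand, nothing is given in the sources. PolyA RNA was made into directional libraries, per the labels' protocols. The deposited counts of 2024 include 2 columns without a label here, which were not used. Names are those of the deposited tables.

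Groups follow the labelled treatment and year. Low counts were removed by filterByExpr (min.count 10, min.total.count 15), and the rest was TMM-scaled and tested with the robust quasi-likelihood F-test of edgeR 4.0.16 in R 4.3.3, within each year for the treatment and over all 14 libraries for the year and for the difference between years. The call is a Benjamini-Hochberg adjusted p under 0.05. Each SE is the absolute log2 fold change over the root of its F statistic. The steps were tested on simulated data. DESeq2 1.42.0, other scaling and filters, the replicate number as a block and leaving out libraries were the alternatives.

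All 10 members were named. From the 94 other pathway genes, up to 6 called genes with the smallest adjusted p were named per comparison, or the nearest 2 where none was called. The genes most like a member are the 3 highest r for OsRR2 and the highest for other members where it reached 0.9. Of the loci found by search, 21 were dropped by description. Members and lists were chosen with earlier results of these data known.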

Additional observations from a re-analysis of the deposited data

Results flagged for a closer look

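Among the 19 members and named pathway genes examined in the 2 groups of 4 leaves, 3 of 38 group values had 1 leaf far from the other 3. Chance flags about 1 in 20 such groups, and none of the 3 is a member. CKX4 was 46.0 CPM in CF leaf 4 of 2023 against 36.1 to 37.6 CPM in the other CF leaves. CKT1 was 18.1 CPM in CF leaf 2 of 2023 against 22.2 to 23.0 CPM. PUP6 was 10.1 CPM in GM leaf 3 of 2023 against 8.54 to 8.75 CPM.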

How the results depend on the processing

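The call of OsRR2 in 2023 held in 16 of 16 alternatives (0.60 to 0.87), and its 2024 call in 9 of 13. Genes called in 2023 (461) numbered 835 with DESeq2, 723 with all 14 libraries in 1 fit, 788 without GM leaves 1 and 2, and 149 to 666 with 1 library left out. Members called were 3 with DESeq2, 3 with no filter and 3 without GM leaves 1 and 2 (1 to 3 with 1 library left out). With no filter, 627 of all 28270 genes were called. Pathway genes called were 1 with plain library totals (1 to 4), a setting that called 677 of all genes. In 2024 genes called (626) were 1186 with plain totals, 975 with no filter, 1617 with the replicate block and 162 to 1603 with 1 library left out. Members called were 0 with plain totals and 3 with the block (0 to 2), and pathway genes 2 in the joint fit (0 to 8). The joint fit called 429 of all genes. The difference between years called 17 genes with DESeq2, 0 with plain totals, 4 with no filter, 1 with the block, 12 without GM leaves 1 and 2 of 2023, and 0 to 13 with 1 library left out. For the year under GM 11675 genes were called with plain totals, and 5733 to 7535 with 1 library left out. Under CF it was 6044 to 7237. Pathway genes called were 22 to 27 and 24 to 32, and members 4 to 5 and 6. With plain totals the share of calls that were higher was 24.5% in 2023 (65.7% with TMM), 17.1% in 2024 (58.1%), 13.3% for the year under CF (48.9%) and 11.1% under GM (49.4%). The causes were not tested.

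Values that turned in sign belonged to no call. With plain totals these were OsRR9 (-0.15) and OsRR10 (-0.050) in 2024, OsRR10 for the year under GM (-0.017) and OsRR4 for the difference between years (-0.025, and -0.073 without GM leaves 1 and 2). With 1 library left out they spanned, in 2024, -0.14 to 0.25 for OsRR9, -0.045 to 0.43 for OsRR10, -0.33 to 0.061 for OsRR1 and -0.76 to 0.050 for OsCKX2, and for the difference between years -0.10 to 0.17 for OsRR4. OsCKX2 for the year under GM spanned -0.59 to 0.21.

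Same-numbered leaves deviated together with r between -0.12 and 0.15 in 2023 and between -0.001 and 0.27 in 2024, so the numbers were not taken to pair the leaves, although in 2024 the r of leaves 1 (0.265) and 2 (0.198) exceeded that of every other combination of a CF and a GM leaf. With the replicate block OsRR4 (adjusted p = 0.00222) and OsRR6 (0.0136) were also called in 2024. OsRR3, OsRR6 and OsCKX2 have few reads, as does the pathway gene IPT7.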
